A study of Rattus norvegicus with 12 samples.

Results

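Glucose sensing in the β-cell was followed through 7 genes, Slc2a2, G6pc2, Pklr, Kcnj11, Abcc8, Cacna1c and Cacna1d, taken by symbol from the 34034 rows of the count table. They were measured by RNA sequencing of INS-1E cells, an established rat insulinoma line of the β-cell type that grows as a single line, here wild type and in medium with 11 mM glucose. Untreated cells were compared with cells given IL-1β at 10 pg/ml for 72 h, with fresh cytokine every 24 h (IL-1βlow), and with cells given a mixture of IL-1β at 100 pg/ml and IFN-γ at 5 ng/ml for 16 h (CYT). The last group received IL-1βlow, a change of medium and then CYT (IL-1βlow + CYT). Each group had 3 libraries, 12 in all, and the comparisons ask what the strong challenge did to these genes and whether the weak preconditioning altered it.

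In β-cells glucose enters through the transporter GLUT2, is phosphorylated and is broken down by glycolysis, so that ATP rises. ATP closes the KATP channel, the membrane depolarizes, and voltage-gated L-type calcium channels open and trigger the release of insulin. Slc2a2 encodes GLUT2, G6pc2 an islet glucose-6-phosphatase that reverses glucose phosphorylation, and Pklr the liver and red cell form of pyruvate kinase at the last step of glycolysis. Kcnj11 encodes the pore (Kir6.2) and Abcc8 the sulphonylurea receptor (SUR1) of the KATP channel, and Cacna1c and Cacna1d encode the pores of the L-type channels Cav1.2 and Cav1.3.

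Levels are given as CPM, a gene's counts scaled to library size, with TMM factors (the trimmed mean of M-values) between libraries. The test was edgeR's quasi-likelihood test, and its p-values were adjusted by Benjamini-Hochberg over 14324 genes. To pass, a gene needed an adjusted p below 0.01 together with a log2 fold change larger in size than a minimum of 1, or of 0.6 for IL-1βlow against untreated cells. The words rose and fell are kept for genes that passed. CPM is not divided by transcript length, so levels are compared between groups and not between genes. Libraries held 15812640 to 20246806 counts. The summed level of 12 β-cell markers, 11 of which passed the filter on low counts, ranged from 34003 to 40361 CPM in untreated cells, 29794 to 34705 in IL-1βlow, 10949 to 11176 in CYT and 16552 to 20848 in IL-1βlow + CYT. Markers of other islet endocrine cells, 2 of 7 past the filter, summed to 187 to 368 CPM in untreated and 25.4 to 64.9 CPM in CYT libraries, with 157 to 260.3 in IL-1βlow and 74.5 to 152 in IL-1βlow + CYT. Exocrine markers (1 of 8 past the filter) stayed at or under 3.39 CPM, leukocyte markers (2 of 6) at or under 4.52 CPM with Ptprc at 0 in all 12 libraries, and endothelial and stromal markers (2 of 7) between 6.18 and 16.6 CPM. The part of these shifts in the results that follow was not tested, and in bulk RNA fewer cells of a type and less RNA per cell cannot be told apart.

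The 7 genes did not move as 1 block. Pklr was the single gene of the 7 to pass, in CYT against untreated cells (lower) and in IL-1βlow + CYT against CYT (higher), while Abcc8 and the L-type channel genes shifted by less than the fold minimum and Kcnj11 did not pass in any comparison. G6pc2 was near 0 counts and was not tested, leaving 6 genes. With IL-1βlow alone 0 of the 6 passed, against 0.433% of all genes tested. With CYT against untreated cells 1 of 6 passed, against 21.6% of all genes, and in IL-1βlow + CYT against CYT 1 of 6 passed, against 12.5%. In IL-1βlow + CYT against untreated cells 0 of 6 passed (5.99% of all genes), and against IL-1βlow cells 0 of 6 (3.88%). For the interaction, the difference between the CYT responses with and without preconditioning, 0 of 6 passed (10.7%). At an adjusted p under 0.05 with no fold minimum, the counts were 0 of 6 for IL-1βlow (1.35% of all genes), 4 of 6 for CYT (62.3%), 2 of 6 for IL-1βlow + CYT against untreated cells (21.8%), 5 of 6 for IL-1βlow + CYT against CYT (50.7%), 1 of 6 against IL-1βlow (13%) and 3 of 6 for the interaction (37.3%). In the comparisons where 0 of 6 passed in edgeR, 0 also passed in DESeq2, and the genes with an unadjusted p under 0.05 numbered 2 for IL-1βlow, 2 for IL-1βlow + CYT against untreated cells, 1 against IL-1βlow and 4 for the interaction. Shares of 6 genes are a description and do not set these genes apart. Comparisons that share a group are not independent of each other.

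**Figure D1:**
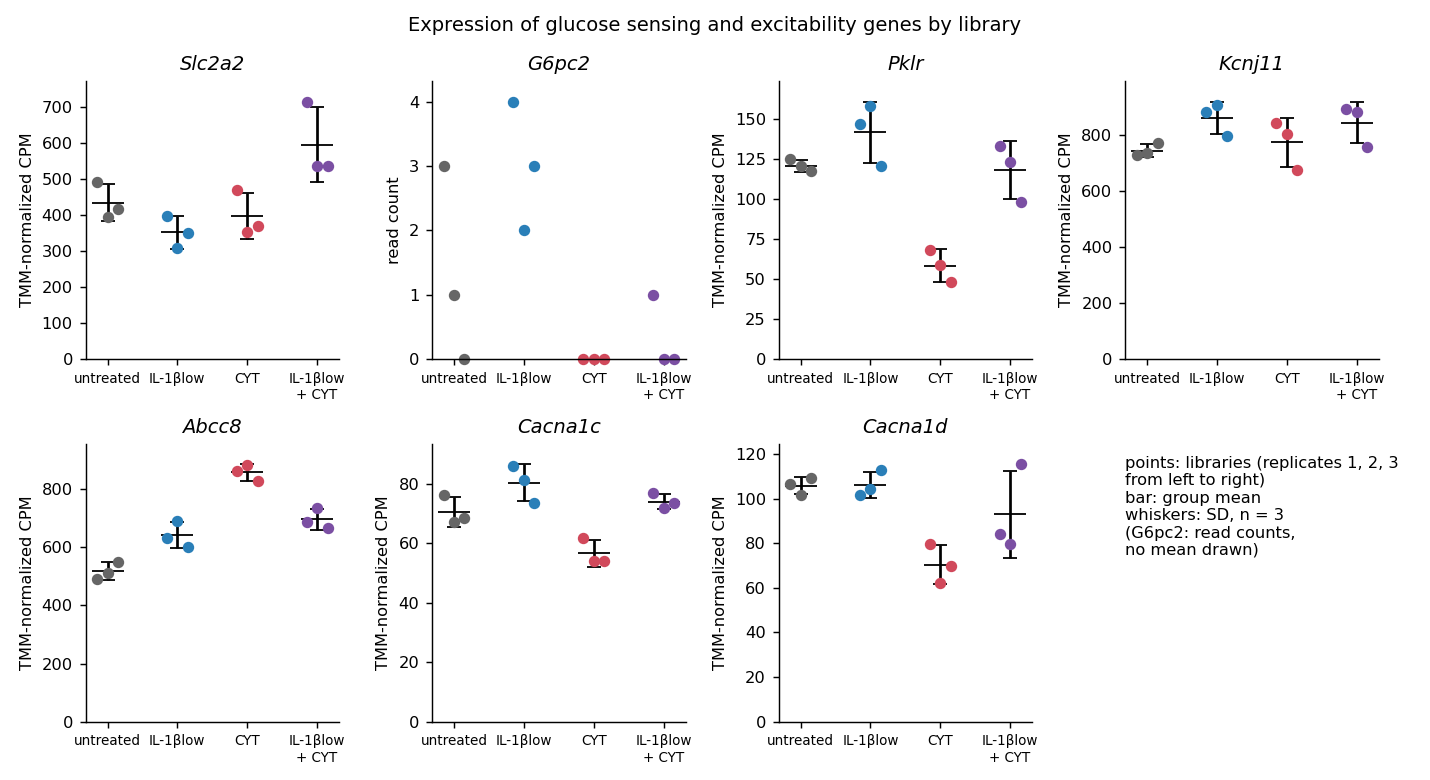
Level of each of the 7 genes in each library, by group, as TMM-normalized CPM on a linear axis from 0, with bars for group means and whiskers for the SD (n = 3); G6pc2 is drawn as read counts with no mean. Pklr libraries with CYT lie between 48.3 and 68.5 CPM, under all others, Abcc8 is highest with CYT, and Slc2a2 is highest in IL-1βlow + CYT.

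Slc2a2, the glucose entry gene, was highest in the preconditioned and challenged cells. Untreated libraries held 492, 394 and 416 CPM (434 ± 51.3, SD, n = 3) and IL-1βlow libraries 397, 307 and 350.2 CPM (352 ± 45.1). CYT libraries held 471, 352 and 368 CPM (397 ± 64.1), and IL-1βlow + CYT libraries 715, 536 and 536 CPM (596 ± 103). All 3 IL-1βlow + CYT libraries lay above every other library, whereas the other 3 groups overlapped. In each group the library numbered 1 was the highest.

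CYT alone left Slc2a2 at a log2 fold change of -0.13 (SE 0.14, 95% confidence interval -0.43 to 0.18, adjusted p = 0.45 in edgeR's quasi-likelihood test), and IL-1βlow alone at -0.30 (SE 0.14, interval -0.61 to 0.00, adjusted p = 0.36). IL-1βlow + CYT exceeded CYT by 0.59 on the log2 scale (SE 0.14, adjusted p = 0.0035), which is under the fold minimum. It exceeded IL-1βlow by 0.76 (SE 0.14, adjusted p = 0.0019) and untreated cells by 0.46 (SE 0.14, adjusted p = 0.033). The last value rests on single libraries, with 0.29 (adjusted p = 0.18) without IL-1βlow + CYT replicate 1, 0.37 (adjusted p = 0.14) without untreated replicate 2 and 0.43 (adjusted p = 0.11) without untreated replicate 3. The CYT response differed by preconditioning, with an interaction of 0.89 on the log2 scale (SE 0.20, adjusted p = 0.0036), also under the fold minimum of 1.

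The RefSeq sequence upstream of Slc2a2 and of Pklr is shown because these genes of glucose entry and use are those whose CYT response differed by preconditioning toward a higher level. The runs are the 250 bases before the annotated start, 5′ to 3′, in the GRCr8 assembly. Slc2a2 lies at chr2:113540120-113540369 on the plus strand and Pklr at chr2:176841014-176841263 on the plus strand. Capitals mark an E-box (CANNTG) in both and, in Pklr, a run of the carbohydrate response element type (CACNNG and CNNGTG, parted by any 5 bases).
Slc2a2: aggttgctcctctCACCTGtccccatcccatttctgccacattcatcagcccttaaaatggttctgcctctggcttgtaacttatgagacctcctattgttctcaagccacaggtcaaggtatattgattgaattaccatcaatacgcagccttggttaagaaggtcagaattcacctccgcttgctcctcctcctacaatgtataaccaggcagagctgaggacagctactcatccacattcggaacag
Pklr: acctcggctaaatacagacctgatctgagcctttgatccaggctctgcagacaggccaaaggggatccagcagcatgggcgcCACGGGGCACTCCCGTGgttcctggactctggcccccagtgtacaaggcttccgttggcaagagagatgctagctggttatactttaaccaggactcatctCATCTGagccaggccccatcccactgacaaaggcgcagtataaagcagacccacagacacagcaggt
With the last base before the start counted as -1, the E-box of Slc2a2 spans positions -237 to -232 and that of Pklr -67 to -62. Of 33469 rat promoter windows of this kind, 65.5% hold an E-box and 0.427% the carbohydrate response element type, which in Pklr spans positions -168 to -152 and was searched for after the sequence had been read. NF-κB-type letters (GGG and CC parted by any 5 bases, in 42.3% of windows) also match within that run of Pklr and overlap it, and neither window holds TAATTA, TTCNNNGAA or TGANTCA, which 4.86%, 7.67% and 6.34% of windows hold. Both strands were searched, and a match describes letters and not a bound site. Of the 7 genes, 5 had an entry, the exceptions being Kcnj11 and Abcc8.

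G6pc2, whose enzyme returns glucose 6-phosphate to glucose, was almost absent. Untreated libraries held 3, 1 and 0 counts, IL-1βlow libraries 4, 2 and 3, CYT libraries 0, 0 and 0, and IL-1βlow + CYT libraries 1, 0 and 0, or 14 counts in all. The gene lay below the low-count filter, so differences between groups were not tested. A count of 0 in a library allows up to 3 counts, which is 0.175 CPM in CYT libraries. Such intervals and floors cover counting error only.

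Pklr, the pyruvate kinase gene, fell with CYT and was near the untreated level when CYT followed IL-1βlow. Untreated libraries held 125, 121 and 118 CPM (121 ± 3.68, SD, n = 3) and IL-1βlow libraries 147, 158 and 121 CPM (142 ± 19.1). CYT libraries held 68.5, 58.8 and 48.3 CPM (58.5 ± 10.1), and IL-1βlow + CYT libraries 133, 123 and 98.5 CPM (118 ± 17.98). The CYT libraries lay under all the others, and the remaining groups overlapped.

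Pklr fell by 1.05 on the log2 scale with CYT (SE 0.14, adjusted p = 1.4e-05, edgeR's quasi-likelihood test), a ratio of 0.483. It rose by 1.02 in IL-1βlow + CYT against CYT (SE 0.14, adjusted p = 3.3e-05), or 2.02-fold. Both values lie just past the fold minimum of 1. Leaving out CYT replicate 3 moved the first to -0.90 and the second to 0.87 (adjusted p = 0.0001 and 0.00023), under the minimum. Without replicate 1 or 2 of the untreated, IL-1βlow or IL-1βlow + CYT cells the second was also under it, at 0.89 to 0.99, as it was with RLE size factors, DESeq2 and 2 other filters. IL-1βlow + CYT and untreated cells differed by -0.03 (interval -0.32 to 0.26, adjusted p = 0.9), and IL-1βlow alone by 0.23 (interval -0.06 to 0.52, adjusted p = 0.45). The interaction was 0.79 (SE 0.19, adjusted p = 0.0057). Pklr overlaps Hcn3 in the annotation, a pacemaker channel gene that rose by 1.01 with CYT (SE 0.093, adjusted p = 4.2e-07), opposite in direction to Pklr. The strand setting of the counting is not given in the sources used here.

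Both subunit genes of the KATP channel were well counted but did not move alike. Kcnj11 held 728, 736 and 773 CPM in untreated (746 ± 23.6, SD, n = 3), 882, 908 and 796 in IL-1βlow (862 ± 58.6), 845, 805 and 677 in CYT (775 ± 87.7) and 895, 883 and 759.9 CPM in IL-1βlow + CYT libraries (846 ± 74.7). Neighbouring groups in the order of these means overlapped, but every IL-1βlow library lay above every untreated library. No comparison of Kcnj11 passed, with log2 fold changes of 0.21 for IL-1βlow (interval 0.00 to 0.42, adjusted p = 0.36), 0.06 for CYT (interval -0.15 to 0.27, adjusted p = 0.64) and 0.13 for IL-1βlow + CYT against CYT (interval -0.08 to 0.34, adjusted p = 0.3). IL-1βlow + CYT differed by 0.18 from untreated cells (adjusted p = 0.21) and by -0.03 from IL-1βlow cells (adjusted p = 0.92).

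Abcc8, the partner subunit, was highest with CYT. Untreated libraries held 492, 511 and 550.4 CPM (518 ± 29.9) and IL-1βlow libraries 631, 689 and 602 CPM (641 ± 44.5). CYT libraries held 862, 882 and 827 CPM (857 ± 27.96), and IL-1βlow + CYT libraries 687, 736 and 665 CPM (696 ± 36.4). Every CYT library lay above every other library and every untreated library below, while IL-1βlow and IL-1βlow + CYT overlapped. CYT exceeded untreated cells by 0.73 on the log2 scale (SE 0.081, adjusted p = 2.7e-06), or 1.65-fold, under the fold minimum. Against CYT, IL-1βlow + CYT was lower, with a log2 fold change of -0.30 (SE 0.080, adjusted p = 0.0066), and it exceeded untreated cells by 0.43 (SE 0.081, adjusted p = 0.0013). IL-1βlow alone exceeded untreated cells by 0.31 (SE 0.081, adjusted p = 0.087). The interaction was -0.61 (SE 0.11, adjusted p = 0.001).

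The ratio of Kcnj11 to Abcc8 CPM within a library differed between groups. It was 1.48, 1.44 and 1.40 in untreated, 1.40, 1.32 and 1.32 in IL-1βlow, 0.980, 0.913 and 0.819 in CYT and 1.30, 1.20 and 1.14 in IL-1βlow + CYT libraries. The CYT ratios were lower than all the others and the untreated ratios higher. On the log2 scale the difference was -0.68 for CYT against untreated cells, and IL-1βlow + CYT exceeded CYT by 0.43. In each of these comparisons the exact permutation test gave p = 0.1, the smallest that 3 against 3 allows, or 0.167 after adjustment over 20 such tests. The ratio is not per length and says nothing of how many subunits of each kind a cell holds.

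**Figure D2:**
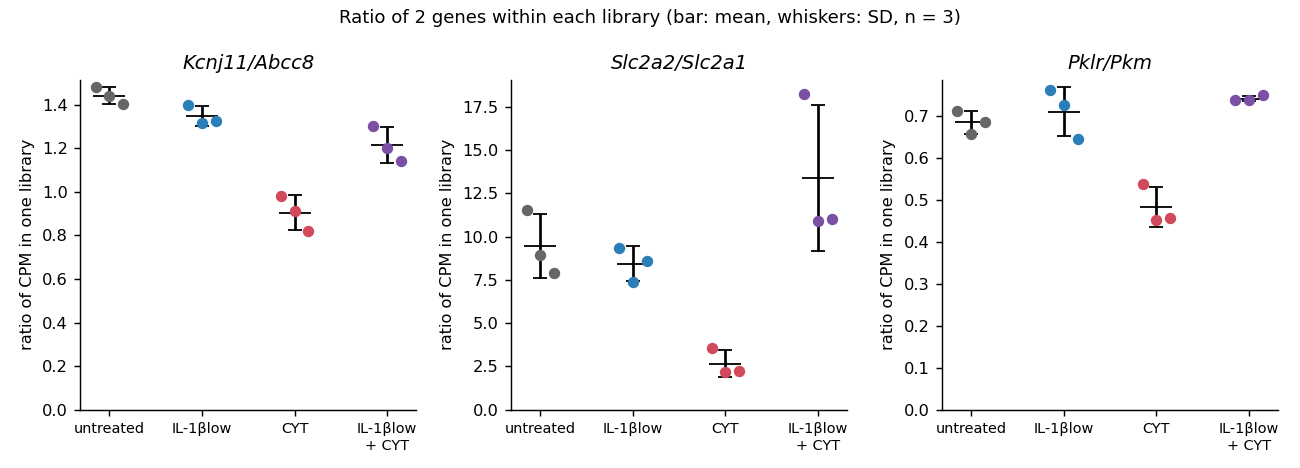
Ratio of CPM of 2 genes within each library, by group, on linear axes from 0, with bars for means and whiskers for the SD (n = 3). The Kcnj11 to Abcc8 ratio and the Slc2a2 to Slc2a1 ratio are lowest in the CYT libraries, at 0.904 ± 0.0809 and 2.67 ± 0.764, as is the Pklr to Pkm ratio at 0.482.

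The other ratios set each glucose gene beside a widely expressed counterpart. Slc2a1, which encodes the transporter GLUT1, rose by 1.71 on the log2 scale with CYT (SE 0.11, adjusted p = 1.3e-08, edgeR) and fell by 1.73 in IL-1βlow + CYT against CYT (SE 0.11, adjusted p = 5.8e-08). The Slc2a2 to Slc2a1 ratio was 9.47 ± 1.86 in untreated, 8.45 ± 1.01 in IL-1βlow, 2.67 ± 0.764 in CYT and 13.4 ± 4.21 in IL-1βlow + CYT libraries (SD, n = 3). CYT libraries did not overlap with untreated or IL-1βlow + CYT libraries (exact permutation p = 0.1, adjusted 0.167), whereas IL-1βlow + CYT and untreated libraries overlapped (exact permutation p = 0.3, adjusted 0.4). Pkm, the pyruvate kinase gene of most tissues, had a log2 fold change of -0.55 with CYT (SE 0.11, adjusted p = 0.00081, edgeR), short of the fold minimum. The Pklr to Pkm ratio was 0.684, 0.710, 0.482 and 0.741 in untreated, IL-1βlow, CYT and IL-1βlow + CYT cells, and CYT libraries did not overlap with those of untreated or IL-1βlow + CYT cells (exact permutation p = 0.1, adjusted 0.167). IL-1βlow + CYT libraries also lay above all untreated libraries in this ratio, by 0.12 on the log2 scale (exact permutation p = 0.1, adjusted 0.167).

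Both L-type calcium channel genes were lower with CYT, by less than the fold minimum. Cacna1c held 76.1, 67.0 and 68.4 CPM in untreated (70.5 ± 4.92, SD, n = 3), 85.9, 81.3 and 73.7 in IL-1βlow (80.3 ± 6.20), 61.7, 54.0 and 54.0 in CYT (56.6 ± 4.47) and 76.7, 71.8 and 73.5 CPM in IL-1βlow + CYT libraries (74.0 ± 2.53). Its CYT libraries were under all others, and the other groups overlapped. CYT differed from untreated cells by -0.32 on the log2 scale (SE 0.089, adjusted p = 0.0064, edgeR), and IL-1βlow + CYT exceeded CYT by 0.39 (SE 0.089, adjusted p = 0.0024). IL-1βlow alone gave 0.19 (interval 0.00 to 0.38, adjusted p = 0.36), and the interaction of 0.20 did not pass (adjusted p = 0.23).

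Cacna1d held 106, 102 and 109 CPM in untreated (106 ± 3.84, SD, n = 3), 102, 104 and 113 in IL-1βlow (106 ± 5.86), 79.7, 62.0 and 69.6 in CYT (70.4 ± 8.87) and 84.0, 79.5 and 115 CPM in IL-1βlow + CYT libraries (92.9 ± 19.5). The CYT libraries were under those of untreated and IL-1βlow cells, but overlapped with IL-1βlow + CYT, which spread most. CYT differed from untreated cells by -0.59 on the log2 scale (SE 0.13, adjusted p = 0.0011, edgeR), and IL-1βlow + CYT exceeded CYT by 0.40 (SE 0.13, adjusted p = 0.018). The latter was 0.32 without CYT replicate 2 (adjusted p = 0.08), 0.36 without CYT replicate 3 (adjusted p = 0.061) and 0.21 without IL-1βlow + CYT replicate 3 (adjusted p = 0.089). IL-1βlow alone gave 0.01 (interval -0.26 to 0.28, adjusted p = 0.99). The ratio of Cacna1c to Cacna1d was higher in CYT than in untreated cells by 0.27 on the log2 scale (exact permutation p = 0.1, adjusted 0.167), and the difference in IL-1βlow + CYT against CYT was 0.00 (exact permutation p = 1). Cacna1c overlaps 4 and Cacna1d 2 other genes in the annotation.

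**Figure D3:**
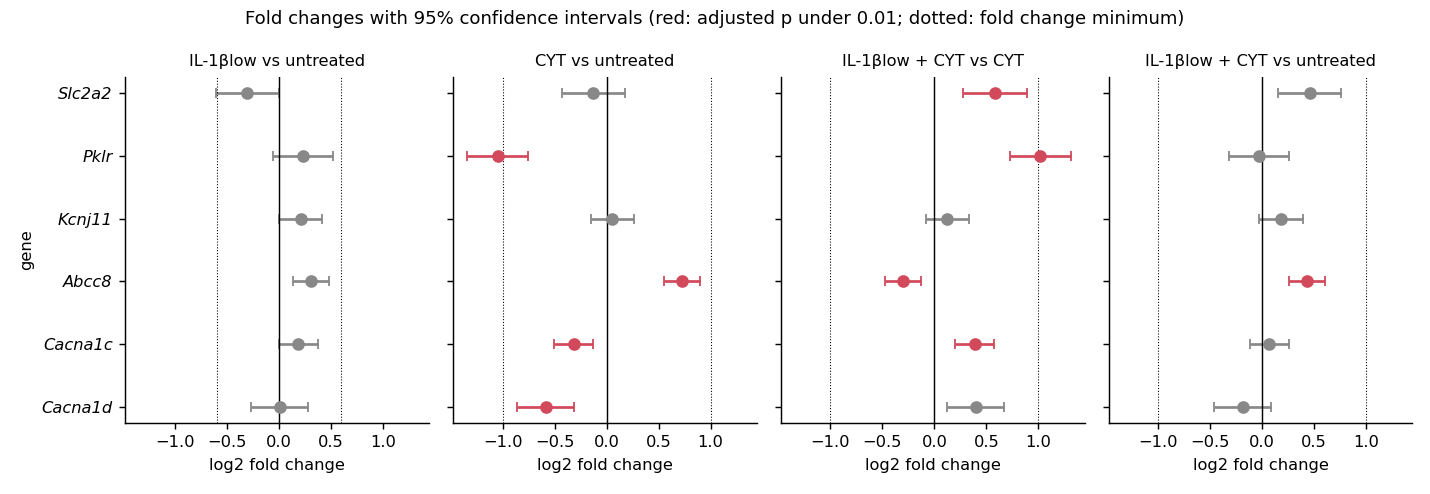
Log2 fold changes (x axis) of the 6 tested genes (y axis) in 4 comparisons, with 95% confidence intervals; red marks an adjusted p under 0.01 and dotted lines the fold minimum. The point of Pklr alone lies past a dotted line, at -1.05 with CYT and 1.02 in IL-1βlow + CYT against CYT.

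Beyond the 7 genes, 4 lists of related genes held 110 entries, of which 86 were tested and 24 were too low, 6 of them with no count in any library. With CYT against untreated cells 36 of the 86 passed (41.9%, against 21.6% of all genes), 18 rising and 18 falling, with a median log2 fold change of -0.22 (all genes -0.04). With IL-1βlow alone 1 of 86 passed (1.16%, against 0.433%). That gene, Kcnn1, a small-conductance calcium-activated potassium channel, was named after its value was seen and fell by 1.38 (SE 0.17, adjusted p = 0.00085). The count was 2 without CYT replicate 1 or IL-1βlow + CYT replicate 3. In IL-1βlow + CYT against CYT 25 of 86 passed (29.1%, against 12.5%), 12 rising and 13 falling, and in IL-1βlow + CYT against untreated cells 16 of 86 (18.6%, against 5.99%), 7 rising and 9 falling. In IL-1βlow + CYT against IL-1βlow cells 10 of 86 passed (11.6%, against 3.88%), 6 rising and 4 falling. Among the tested genes of these lists 12 averaged under 1 CPM in at least 1 group. Of the tested genes 2 reached the low-count filter only through libraries with CYT and 1 only through libraries without it. They are kept among the 86, so the counts above depend in part on the filter.

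Among genes of glucose transport and phosphorylation, 6 of 12 passed with CYT, 3 in each direction. Slc2a1 and Slc2a3 rose, the latter by 1.44 (SE 0.19, adjusted p = 1.2e-05), while Slc2a4, the insulin-responsive transporter, fell by 2.43 (SE 0.34, adjusted p = 2.6e-05). Slc2a3 and Slc2a4 were low throughout. Slc2a3 averaged 3.22 CPM in untreated, 8.76 in CYT and 3.41 CPM in IL-1βlow + CYT cells. Slc2a4 averaged 5.52, 1.02 and 4.41 CPM in the same groups, and its CYT libraries held 9, 25 and 22 counts. Gpd2, the mitochondrial glycerol phosphate dehydrogenase, fell by 1.84 (adjusted p = 1.9e-09). In IL-1βlow + CYT against CYT 3 passed, as Slc2a4 rose by 2.12 (adjusted p = 0.00016) and Slc2a1 and Slc2a3 fell, the latter by 1.36 (adjusted p = 3.3e-05). Gpd2 gave 0.55 in that comparison (adjusted p = 0.00039), under the minimum. The hexokinase genes Hk1, Hk2 and Hk3 had few counts or none, with Hk1 at 0 in all libraries, Hk2 at up to 2 counts and Hk3 at up to 3. Ldha was also at 0 throughout. A count of 0 does not establish absent RNA, and loss of reads in their assignment to genes was not tested.

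Of the other calcium channel subunits, 4 of 14 passed with CYT, 3 rising and 1 falling. Cacnb3, an auxiliary β subunit, was 262 CPM in untreated, 305 in IL-1βlow, 585 in CYT and 393 CPM in IL-1βlow + CYT cells, and rose by 1.16 with CYT (SE 0.10, adjusted p = 2.6e-07). It overlaps Tuba1c in the annotation. Other genes named from the lists overlap too, among them Cacna2d4 (3 genes), Trpm3 (10 genes), Kcnk16 (Nudt13), and Kcnq3 and Kcnn3 (1 gene each). Cacna1e, the R-type pore, rose by 1.81 (SE 0.45, adjusted p = 0.0029) from under 1 CPM, so its fold rests on low counts. Cacna2d4 fell by 1.87 (SE 0.27, adjusted p = 3e-05). The P/Q-type pore gene Cacna1a had a log2 fold change of -0.48 (adjusted p = 0.0065) and Cacnb2 of 0.22 (adjusted p = 0.32). In IL-1βlow + CYT against CYT 0 of 14 passed in edgeR, as in DESeq2, while 8 had an unadjusted p under 0.05 and 5 an adjusted p under 0.05. Cacnb3 gave -0.57 there (adjusted p = 0.00032).

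Potassium channel genes held the widest range of fold changes of the 4 lists. With CYT 17 of 41 passed, 9 rising and 8 falling, and in IL-1βlow + CYT against CYT 16 passed, 6 rising and 10 falling. Kcnq3, which forms an M-type channel, went from 0.953 CPM in untreated and 1.23 in IL-1βlow to 178 in CYT and 24.9 CPM in IL-1βlow + CYT cells. Its log2 fold change was 7.52 with CYT (SE 0.34, adjusted p = 3.2e-10) and -2.84 in IL-1βlow + CYT against CYT (SE 0.24, adjusted p = 5.4e-07). Kcnn3 rose by 4.86 with CYT (SE 0.33, adjusted p = 1.6e-08), and Kcnk16, the TALK-1 potassium channel of islet cells, fell by 3.36 (SE 0.45, adjusted p = 1.9e-05). The levels of Kcnn3 and Kcnk16 are not reported here, so how far these folds rest on low counts is not shown. Kcnmb2, an auxiliary subunit of the large-conductance calcium-activated channel, fell with a log2 fold change of -2.60 (adjusted p = 1.7e-07). Kcnk16 and Kcnmb2 rose by 2.68 (adjusted p = 0.00027) and 1.97 (adjusted p = 6.8e-06) in IL-1βlow + CYT against CYT, and Kcna6 fell by 1.62 (adjusted p = 8.5e-05). The other KATP channel genes Kcnj8 and Abcc9 had no count in any library.

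Of the sodium, TRP and other depolarizing channel genes, 9 of 19 passed with CYT, 3 rising and 6 falling. Scn4b, a sodium channel beta subunit, had 3, 4 and 0 counts in the untreated libraries and 110, 113 and 118 counts with CYT. It is among the 3 but reached the low-count filter only through libraries with CYT, so no fold is given for it. Trpm5, a calcium-activated cation channel, fell by 2.94 (adjusted p = 4.5e-07), and Trpm3 fell by 2.12 (adjusted p = 1.8e-07). In IL-1βlow + CYT against CYT 6 passed, 5 rising and 1 falling, among them Scn9a, which rose by 1.59 (adjusted p = 0.00066), and Scn3a, which rose 2.83-fold (adjusted p = 3.8e-06).

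**Figure D4:**
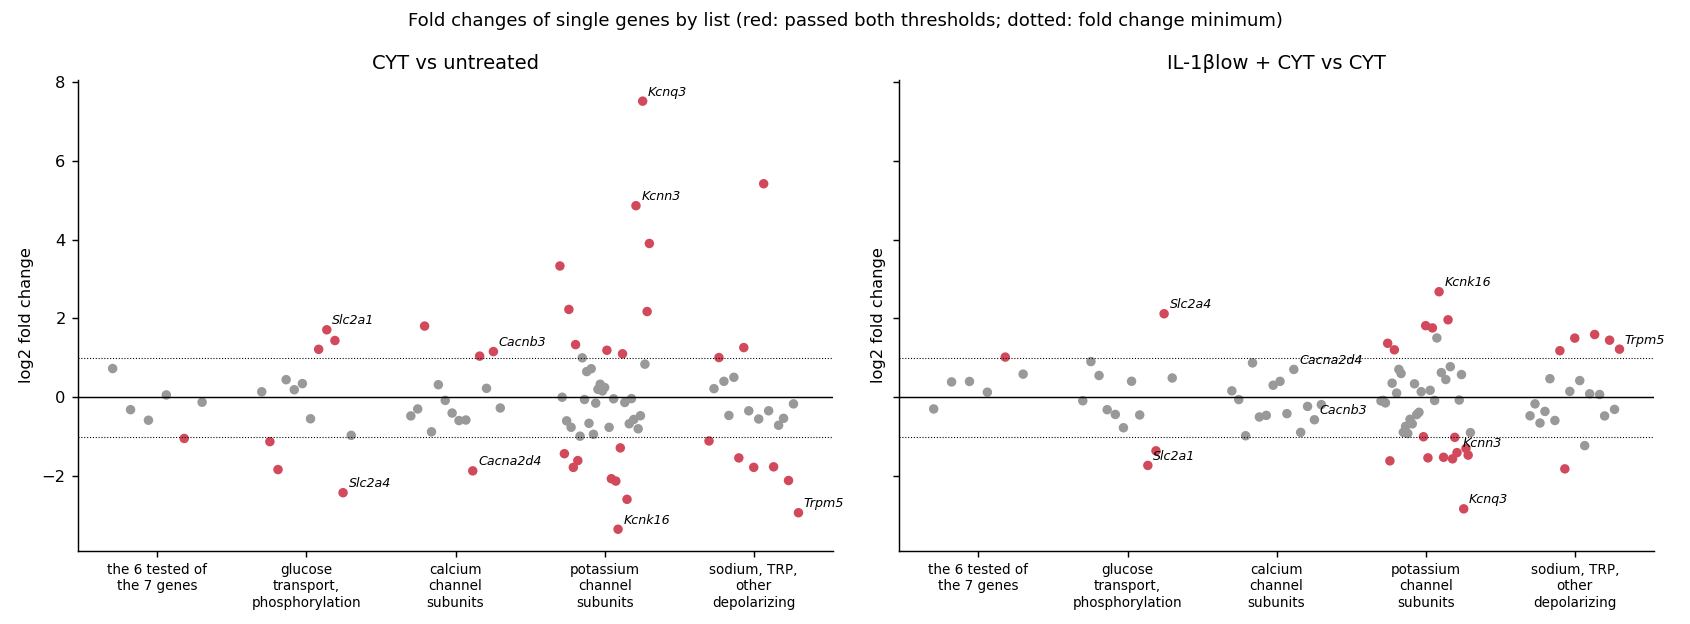
Log2 fold change of each gene of the 4 lists and of the 6 tested genes, in CYT against untreated cells (left) and in IL-1βlow + CYT against CYT (right); red points passed both thresholds and dotted lines mark the fold minimum. With CYT 36 of the 86 list genes are red, from -3.36 (Kcnk16) to 7.52 (Kcnq3), and the second panel holds 25.

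The genes most alike in pattern to each of the 6 were taken by Pearson r of log2 CPM over the 12 libraries, a description that rests on 4 groups and carries no p. Pklr was followed most closely by Ttyh3 (0.993), Pbld2 (0.993) and Cdca8 (0.991), and Abcc8 by Zfp358 (0.983), Vat1 (0.983) and Fkbpl (0.976). Cacna1d lay nearest to Pnisr (0.976), Ccdc34 (0.970) and Sltm (0.967), and Kcnj11 to Tmem94 (0.972), Ndufb10 (0.967) and LOC688815 (0.962). Cacna1c lay nearest to Habp4 (0.967), LOC100359421 (0.966) and Cbx6 (0.965). The highest values for Slc2a2 were lower, 0.920 for Nr2f2, 0.915 for Ywhah and 0.909 for Ddc.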

How the data were processed

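The authors prepared TruSeq libraries from polyA RNA, checked the reads with FastQC, trimmed (rfastp) and aligned them to mRatBN7.2 (Rsubread) and assigned them to genes by featureCounts. The deposited file gives raw read counts, whole numbers for each gene symbol, with no normalization. Whether strand was used is not given in the sources used here, so how reads shared by overlapping genes were counted is not known. Overlaps were taken between whole gene spans. Of 34034 rows, those with CPM above 1 in at least 2 of 12 libraries were kept (14324). With R 4.3.3 and edgeR 4.0.16, TMM factors and 1 quasi-likelihood fit of 4 groups were made, with 8 residual degrees of freedom. Thresholds follow the study. Standard errors come from the fold change and F statistic. Ratios used a pseudocount of 0.5 CPM. Rn45s took 6.89 to 11.1% of counts. The fit was tested on simulated data.

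Named were all 7 genes, the 2 largest rises and 2 largest falls that passed per list in the comparisons of CYT with untreated and of IL-1βlow + CYT with CYT, the ratio partners, Cacna1a, Cacna1e, Cacnb2 and Cacnb3, and the 3 genes most alike to each. Some genes that this rule names, and 1 of the 5 ratios, are not reported here. The 7 genes and all lists were chosen with earlier results of these data known. Alternatives were DESeq2 1.42.0, edgeR's exactTest, other size factors and filters, a replicate block and leaving out each library. Promoter sequences and overlaps are from RefSeq on GRCr8, a different build from that of the counts. With no molecular identifiers, reads need not be separate molecules.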

Additional observations from a re-analysis of the deposited data

Results flagged for a closer look

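The response to CYT in preconditioned cells (IL-1βlow + CYT against IL-1βlow) was compared with that in cells without preconditioning (CYT against untreated) by the interaction in edgeR's quasi-likelihood test. Given here are 3 of the 7 genes, with an adjusted p under 0.01 at any fold, and 9 other genes that passed both thresholds. Among the 7 genes, the difference was 0.89 on the log2 scale for Slc2a2 (adjusted p = 0.0036), 0.79 for Pklr (adjusted p = 0.0057) and -0.61 for Abcc8 (adjusted p = 0.001), all under the fold minimum. Over 18 alternative settings (edgeR or DESeq2) the largest adjusted p was 0.013 for Slc2a2 and 0.018 for Pklr, both above 0.01, and 0.0034 for Abcc8. The smallest differences were 0.71 for Slc2a2 and 0.64 for Pklr. Potassium channel genes gave 2.84 for Kcnk16 (adjusted p = 0.002), 1.87 for Kcnmb2 (adjusted p = 0.00026), -3.19 for Kcnq3 (adjusted p = 0.00074) and -1.58 for Kcna6 (adjusted p = 0.0042). Glucose transporters gave -1.58 for Slc2a1 (adjusted p = 9.3e-06) and -1.53 for Slc2a3 (adjusted p = 0.00062). The remaining channel genes gave 1.59 for Trpm3 (adjusted p = 0.00023), 1.54 for Trpm5 (adjusted p = 0.0055) and 1.39 for Scn3a (adjusted p = 0.00029). Other genes of the lists also had an adjusted p under 0.01 but a difference under the fold minimum, among them Gpd2 (0.91, adjusted p = 0.00023), Cacnb3 (-0.79, adjusted p = 0.00077) and Hcn3 (-0.89, adjusted p = 0.00018). Over all genes tested 10.7% passed both thresholds for this interaction, and 37.3% had an adjusted p under 0.05.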

How the results depend on the processing

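The 1 gene (Pklr) passing in CYT against untreated cells became 0 with no filter on low counts (-0.98) and 4 at an adjusted p under 0.05 with no fold minimum, and ran from 0 to 1 when 1 library was left out. The 1 gene passing in IL-1βlow + CYT against CYT became 0 with RLE size factors, DESeq2, no filter, or a minimum of 10 counts in every library, 5 at an adjusted p under 0.05, and ran from 0 to 1 with 1 library left out, where the Pklr fold change ran from 0.87 to 1.13. The adjusted p under 0.05 with no fold minimum also gave 2 for IL-1βlow + CYT against untreated cells, 1 against IL-1βlow and 3 for the interaction, and for the 4 lists 3, 67, 38, 62, 27 and 45 in the order IL-1βlow, CYT, IL-1βlow + CYT against untreated, against CYT, against IL-1βlow, and interaction. The list count for IL-1βlow alone, 1, was 2 with RLE, total counts, DESeq2, exactTest or only the groups compared, 3 with no filter and 3 with the replicate block, and 1 to 2 with 1 library left out; that for IL-1βlow + CYT against IL-1βlow was 6 with the minimum of 10 counts. Fold changes near 0 changed sign: Pklr in IL-1βlow + CYT against untreated cells (0.011 with no filter, -0.14 to 0.085 with 1 library left out), Cacna1d in IL-1βlow (-0.039 to 0.034 with 1 library left out) and Kcnj11 in IL-1βlow + CYT against IL-1βlow (-0.083 to 0.044 with 1 library left out). The sources do not say that libraries with one replicate number belong together. Their deviations from the group means had a mean correlation of 0.171 over 18 same-numbered pairs (from -0.175 to 0.472) and -0.0848 over 36 others. Deviations within a group of 3 sum to 0, so the second mean largely follows from the first and is not a separate observation. Of 12 libraries, 9 correlated best with their own number, which is a hint from the data and not from the design. With the replicate block the 7 genes had 1 passing with CYT and 1 in IL-1βlow + CYT against CYT, as without it. At an adjusted p under 0.05 with no fold minimum the block moved their counts from 0 to 2 for IL-1βlow (Slc2a2, adjusted p = 0.013, and Abcc8, 0.019), from 1 to 2 for IL-1βlow + CYT against IL-1βlow (Pklr, 0.036) and from 3 to 4 for the interaction (Cacna1d, 0.04), and left the other 3 comparisons at 4, 2 and 5. No filter gave 0.075 for Cacna1c with CYT. The depth limits G6pc2.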
